A study of Mus musculus with 9 samples.

Results

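The 10 interferon-inducible GTPases Irgm1, Irgm2, Igtp, Ifi47, Iigp1, Tgtp1, Gbp2, Gbp3, Gbp6 and Gbp7 were followed in mouse jejunum, the middle stretch of the small intestine, by bulk RNA sequencing. They were taken by gene symbol, and all 10 were among the 21868 genes of the count table and among the 14668 that passed the filter on low counts. There were 3 libraries each from mice given TPN for 24 h, mice starved for 24 h and mice given a sham treatment for 24 h, made from 5 cm of opened jejunum. TPN is total parenteral nutrition, feeding by infusion into the bloodstream that bypasses the gut lumen. The labels name no strain, genotype, age or sex, do not say what the sham treatment was, and call the replicates biological without saying that each was a separate mouse. If they were not, the tests would reflect technical spread alone.

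Most of these GTPases were lower in both nutritional states than in sham jejunum. In TPN, 6 of the 10 were lower than in sham, as were 5.12% of all genes tested, with Igtp at 31.6% of its sham level, and the other 4 did not pass the test. In starvation, 8 of the 10 were lower than in sham, as were 1.14% of all genes tested, with Gbp6 at 26.9% of its sham level. Between the 2 nutritional states 1 member passed the test, higher in TPN as were 1.94% of all genes tested: Gbp6, at 3.75 times its starvation level. The members were chosen with earlier results of these data known, so their standing beside all genes can follow from the choice.

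The members belong to 2 families of GTPases that cells make in response to interferon, above all interferon gamma, the cytokine of T cells and natural killer cells. Interferon gamma binds the receptor made of Ifngr1 and Ifngr2, and the signal then switches on a set of genes that includes transcription factors such as Irf1. The immunity-related GTPases (IRGs) include regulators (Irgm1, Irgm2 and Igtp), which sit on the cell's own membranes and hold the others inactive there, and effectors (Ifi47, Iigp1 and Tgtp1), which gather on the vacuoles of intracellular parasites and bacteria. The guanylate-binding proteins (GBPs), such as Gbp2, Gbp3, Gbp6 and Gbp7, are larger GTPases that also gather on such vacuoles and on bacteria. In the intestine these genes are known as part of the epithelium's own defence and are active to some degree without infection.

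The libraries held 7779877 to 12084278 counts. Levels are in CPM, counts per library size after scaling with TMM factors that correct for differences in library composition, and a single read equals 0.0798 to 0.119 CPM. The members' lowest count was 21 reads, for Tgtp1 in starvation replicate 3, so counting error adds to the spread of the lowest members. Enterocyte markers, at 35800 to 42860 CPM in sum in TPN, 33580 to 122800 in starvation and 47930 to 87390 in sham, were high in every library. Sham replicate 2 and starvation replicate 3 stood apart from their groups. Smooth muscle markers summed to 9457 CPM in sham replicate 2, while sham replicates 1 and 3 had 1187 and 1275 CPM, and villus tip markers to 76120 CPM in starvation replicate 3, against 14660 and 24380 in the other starvation libraries. All counts of members below were therefore also made without these 2 libraries. Pancreatic acinar markers summed to 13950 CPM in TPN replicate 2, 1813 CPM in starvation replicate 1 and 2480 CPM in sham replicate 1, against 16.5 to 272 CPM in the other 6 libraries, and TPN replicate 2 also differed more from TPN replicates 1 and 3 (chi-square per gene 41.5 and 43.1) than these did from each other (7.74). The part of these markers in the results was not tested.

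Added over the 10 genes, the members made up 343 to 396 CPM in TPN libraries, 249.6 to 323.5 CPM in starvation libraries and 710.5 to 793 CPM in sham libraries. Each TPN and starvation library thus held fewer member transcripts than any sham library, and the TPN libraries held more than any starvation library. As a share of all counts the members took 0.0370% to 0.0442% in TPN, 0.0247% to 0.0294% in starvation and 0.0628% to 0.0788% in sham, in the same order of groups. In bulk tissue, fewer cells that make a transcript and less transcript per cell cannot be told apart.

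**Figure D1:**
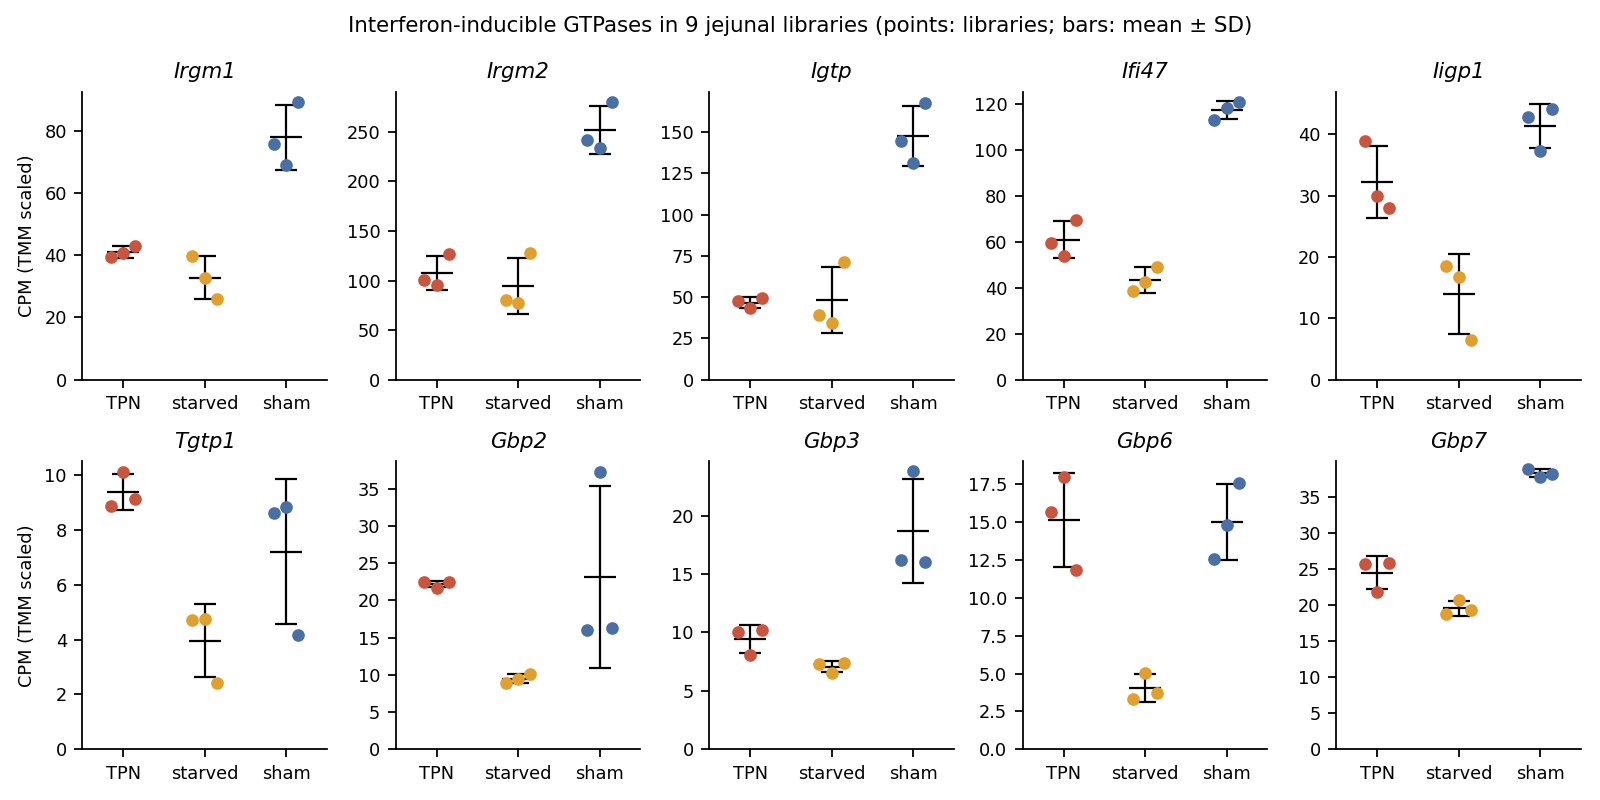
TMM-scaled CPM of the 10 members (vertical axes, each from 0) in the TPN, starved and sham libraries (3 points per group), with the mean and SD as bars. Irgm1, Irgm2, Igtp, Ifi47, Gbp3 and Gbp7 lie below sham in every TPN and every starvation library, while Gbp6 lies below all sham libraries in every starvation library but not in every TPN library.

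The 3 regulators were lower in both states, with log2 fold changes from -1.66 to -0.93. Irgm1, the regulator whose loss in mice weakens defence against mycobacteria and disturbs autophagy, had 39.3, 40.65 and 43.1 CPM in TPN, 39.7, 32.6 and 26.0 CPM in starvation and 75.6, 68.8 and 89.3 CPM in sham. Neither nutritional group overlapped sham. The log2 fold change of Irgm1 was -0.93 ± 0.17 (SE) in TPN against sham (adjusted p = 0.0145, edgeR's quasi-likelihood test with Benjamini-Hochberg adjustment over all genes tested, as for every adjusted p from edgeR here) and -1.25 ± 0.17 in starvation against sham (adjusted p = 0.0105). Irgm2, a second regulator, had 100.6, 95.5 and 126.9 CPM in TPN, 79.9, 77.1 and 127.6 CPM in starvation and 242.2, 233.7 and 279.9 CPM in sham. All 6 TPN and starvation libraries lay far below the lowest sham library. Its log2 fold change was -1.23 ± 0.22 in TPN (adjusted p = 0.0124) and -1.41 ± 0.22 in starvation (adjusted p = 0.0168). Igtp, the third regulator and also called Irgm3, had 47.6, 43.3 and 49.2 CPM in TPN, 39.0, 34.4 and 71.3 CPM in starvation and 144.6, 131.3 and 167.4 CPM in sham. It fell to 31.6% of sham in TPN (log2 fold change -1.66 ± 0.26, adjusted p = 0.00715) and to 32.6% of sham in starvation (-1.62 ± 0.25, adjusted p = 0.0168). Between TPN and starvation the 3 regulators overlapped. Starvation replicate 3 gave the highest Irgm2 and Igtp of its group but the lowest Irgm1.

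Irgm2 and Igtp are neighbours on chromosome 11 (GRCm38, GENCODE release M21). Igtp runs from 58199556 to 58207591 and Irgm2 from 58199618 to 58222782, both on the plus strand, and they share 162 exonic bases, 8.01% of the exons of Igtp and 4.39% of those of Irgm2. Irgm1 lies apart on the same chromosome, from 48861968 to 48871683 on the minus strand, in 4 exon blocks, and shares no exonic base and no stretch of 75 bases with another gene. The promoter stretches of the 3 regulators are shown because their transcripts were lower together, and because those of Irgm2 and Igtp are almost the same sequence. They come from RefSeq windows on GRCm38.p6 that reach from 250 bases before to 50 bases after each start site, of which 8 of the 10 members have at least 1. Iigp1 and Gbp6 have no entry. In the sequences below, read 5′ to 3′ on the gene's strand, capitals mark matches on either strand to GAS (TTCNNNGAA, which reads the same on both strands, the interferon gamma-activated sequence) or ISRE (GAAA, any 2 bases, then GAAA again, the interferon-stimulated response element, which interferon regulatory factors bind). The stretches lie at chr11:48871428-48871457 (minus strand), chr11:58214882-58214942 (plus strand) and chr11:58199491-58199551 (plus strand).
Irgm1: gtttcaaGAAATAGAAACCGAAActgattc
Irgm2: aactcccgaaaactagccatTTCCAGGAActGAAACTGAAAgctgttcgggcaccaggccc
Igtp: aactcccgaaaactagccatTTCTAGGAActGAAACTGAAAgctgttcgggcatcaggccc

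The Irgm1 stretch holds 2 ISRE matches that share 4 bases, from 30 to 15 bases before the start site, and no GAS match lies in its window. All 30 printed bases of Irgm1 lie in annotated exons. The stretch is inside the gene as placed by GENCODE, so its matches precede the RefSeq start site but follow the GENCODE start. Irgm2 and Igtp each hold a GAS match followed by an ISRE match, starting 75 and 64 bases before the start site in Irgm2, and 45 and 34 bases before it in Igtp. The RefSeq start used for Irgm2 lies well inside the gene as placed by GENCODE, which begins at 58199618, close to the start of Igtp. The bases after that RefSeq start were not matched to a GENCODE transcript of Irgm2, while those of Igtp were matched to its own. The 61 printed bases of Irgm2 and Igtp differ at 2 bases and are 96.7% identical. Among all 32851 promoter windows of the table, 3.44% hold an ISRE match and 8.30% a GAS match, against 7 and 4 of the 9 windows of the members. A GAS match with an ISRE match that starts 11 bases after it on the gene's strand, an arrangement looked for after these sequences had been seen, was found in 5 windows (0.015%), those of Irgm2, Igtp, Tgtp1, Tgtp2 and Gm12185. A match describes letters in the window and is not evidence of binding.

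**Figure D2:**
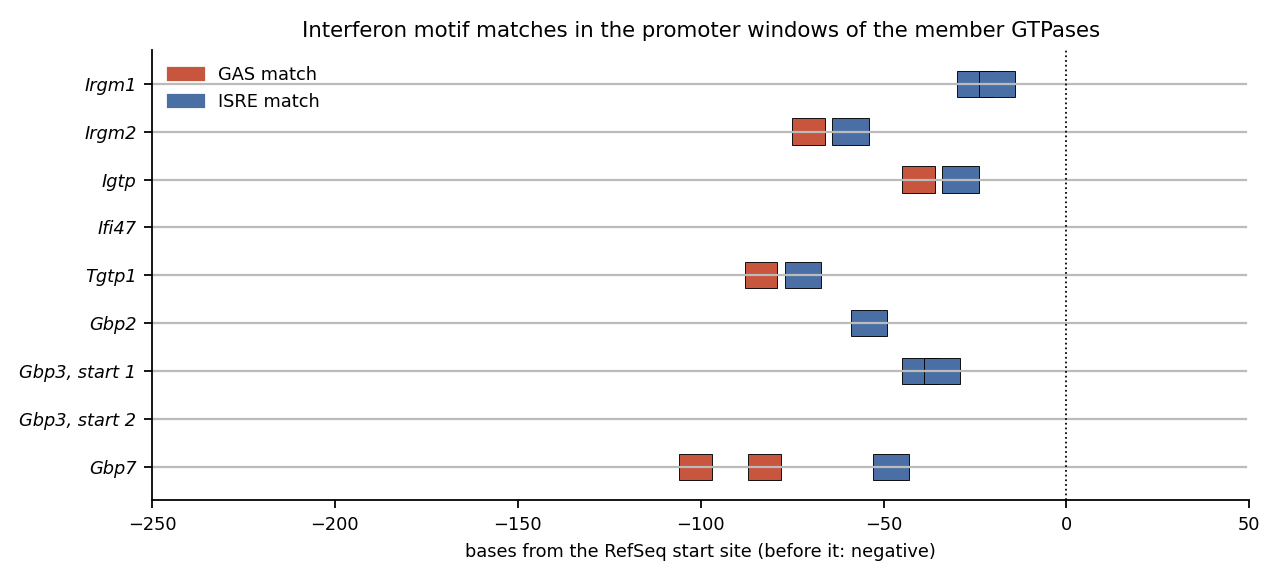
Positions of GAS (red) and ISRE (blue) matches in the RefSeq promoter windows of the members, in bases from the start site (dotted line at 0, negative before it), 1 row per start site. Irgm2, Igtp and Tgtp1 show a GAS match directly followed by an ISRE match, Ifi47 and the second start of Gbp3 show no match, and all matches shown lie before the start site.

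Of the 3 effectors, Ifi47 was lower in both states, Iigp1 was lower in starvation, and Tgtp1 passed in neither comparison with sham. Ifi47, also called Irgd or IRG-47, had 59.3, 53.8 and 69.6 CPM in TPN, 38.4, 42.3 and 49.2 CPM in starvation and 113, 118 and 120.5 CPM in sham. The 3 groups did not overlap at all, with TPN between starvation and sham. Its log2 fold change was -0.94 ± 0.14 in TPN against sham (adjusted p = 0.00686) and -1.44 ± 0.15 in starvation against sham (adjusted p = 0.00577), with the smallest adjusted p of the 10 members in both. The gene lies at 49076587 to 49096974 on the plus strand of chromosome 11, and 8.78% of its exonic bases also belong to Olfr56 or to Gm12188. Iigp1, also called Irga6 and among the first effectors to load onto vacuoles of the parasite Toxoplasma, had 38.9, 29.9 and 27.9 CPM in TPN, 18.5, 16.8 and 6.48 CPM in starvation and 42.9, 37.3 and 44.1 CPM in sham. Its TPN and sham libraries overlapped, and its starvation libraries were below both groups. The log2 fold change of Iigp1 was -1.57 ± 0.33 in starvation against sham (adjusted p = 0.0367). In TPN against sham it was -0.36, with a 95% interval from -1.08 to 0.35 (adjusted p = 0.50), so that a fall by as much as 1.08 is within the interval.

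Tgtp1, also called Irgb6, was among the lowest members, with 8.90, 10.1 and 9.13 CPM in TPN, 4.71, 4.75 and 2.43 CPM in starvation and 8.64, 8.86 and 4.17 CPM in sham. Every TPN library was above every sham library, by as little as 8.90 CPM in TPN replicate 1 against 8.86 CPM in sham replicate 2, a gap within counting error, and a single sham library, replicate 3, lay below the highest starvation libraries. The log2 fold change was 0.38, with a 95% interval from -0.41 to 1.17, in TPN against sham (adjusted p = 0.52), and -0.85, with an interval from -1.67 to -0.04, in starvation against sham (adjusted p = 0.194). Tgtp1 is at 48985327 to 48994172 on the minus strand of chromosome 11. Of its stretches of 75 bases, 77.2% also occur in another gene, chiefly Tgtp2 and Gm12185, so its count is uncertain where reads could not be placed. Tgtp2, its near copy, had 16.65, 18.2 and 15.9 CPM in TPN, 8.78, 8.44 and 3.82 CPM in starvation and 19.5, 16.0 and 15.4 CPM in sham. It was lower in starvation than in sham (log2 fold change -1.27 ± 0.29, adjusted p = 0.0483). The promoter of Tgtp1 is shown for comparison with those of the regulators, since it has the same order and spacing of matches, at chr11:48992294-48992354 (minus strand).
Tgtp1: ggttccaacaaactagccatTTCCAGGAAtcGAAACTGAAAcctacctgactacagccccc

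The Tgtp1 stretch differs from that of Igtp at 22 of 61 bases and from that of Irgm2 at 20, while the GAS match starts 88 and the ISRE match 77 bases before the start site. The spacing of the matches is the same in all 3. In TPN against sham Igtp and Irgm2 were called lower and Tgtp1, at 0.38, was not called. Of the other genes with this arrangement, Gm12185 was called lower at -0.56, and Tgtp2, at -0.007, was not called. What the arrangement has to do with these values was not tested, and the count of Tgtp1 is uncertain.

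Among the 4 guanylate-binding proteins, Gbp3 and Gbp7 were lower in both states, Gbp6 was lower in starvation, and Gbp2 passed in neither comparison with sham. Gbp7 had 25.6, 21.8 and 25.9 CPM in TPN, 18.7, 20.7 and 19.3 CPM in starvation and 38.9, 37.8 and 38.2 CPM in sham. Its groups did not overlap, with TPN again between starvation and sham. The log2 fold change of Gbp7 was -0.65 ± 0.13 in TPN (adjusted p = 0.0216) and -0.97 ± 0.14 in starvation (adjusted p = 0.0105). Gbp3 had 10.05, 8.11 and 10.2 CPM in TPN, 7.26, 6.54 and 7.41 CPM in starvation and 16.2, 23.8 and 16.0 CPM in sham. Its groups did not overlap either, and sham replicate 2 was the highest library. The log2 fold change of Gbp3 was -0.98 ± 0.22 in TPN (adjusted p = 0.0302) and -1.40 ± 0.23 in starvation (adjusted p = 0.0193).

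Gbp6 had 15.7, 18 and 11.9 CPM in TPN, 3.35, 5.07 and 3.70 CPM in starvation and 12.6, 14.8 and 17.6 CPM in sham. TPN and sham covered the same range, and every starvation library was far below both. Its log2 fold change was 0.01 in TPN against sham, with a 95% interval from -0.54 to 0.57 (adjusted p = 0.978), and -1.89 ± 0.26 in starvation against sham (adjusted p = 0.0105). Gbp6 lies at 105270702 to 105293698 on the minus strand of chromosome 5, and 67.3% of its stretches of 75 bases also occur in other genes, chiefly Gm43302, Gbp10, Gbp11 and Gbp8, so its count too is uncertain. Gbp2, which recruits other GBPs to pathogen vacuoles, had 22.4, 21.7 and 22.4 CPM in TPN, 8.86, 9.39 and 10.1 CPM in starvation and 16.0, 37.2 and 16.2 CPM in sham. The starvation libraries were below all others, and in sham a single library, replicate 2, stood far above the other two. Its log2 fold change was -0.06 in TPN against sham, with a 95% interval from -0.74 to 0.62 (adjusted p = 0.921), and -1.29 ± 0.31 in starvation against sham (adjusted p = 0.0547). Without sham replicate 2 and starvation replicate 3, Gbp2 was higher in TPN than in sham by 0.50 (adjusted p = 0.0151).

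Gbp2, Gbp3 and Gbp7 are neighbours on the plus strand of chromosome 3. Their promoter stretches are shown because the 3 genes share a cluster yet Gbp2 did not follow the other two in TPN, and in all 3 the ISRE match is on the opposite strand, so that its capitals read as the reverse complement. They lie at chr3:142620586-142620631, chr3:142559979-142560034 and chr3:142530210-142530312.
Gbp2: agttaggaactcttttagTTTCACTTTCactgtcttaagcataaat
Gbp3: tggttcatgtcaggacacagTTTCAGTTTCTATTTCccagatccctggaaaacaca
Gbp7: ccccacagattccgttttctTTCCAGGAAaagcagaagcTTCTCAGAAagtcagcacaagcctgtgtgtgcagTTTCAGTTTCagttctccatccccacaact

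Gbp2 holds 1 ISRE match, Gbp3 holds 2 that share 4 bases, and Gbp7 holds 1 ISRE match and 2 GAS matches. The ISRE matches of Gbp2 and Gbp7 start 59 and 53 bases before the start site, and the first of Gbp3 starts 45 bases before it. Of the printed bases, 30 of 46 in Gbp2, 9 of 56 in Gbp3 and 0 of 103 in Gbp7 lie in annotated exons.

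In all, TPN against sham had 6 of the 10 members lower and 0 higher. The count of 0 higher stood also at an unadjusted p under 0.05 and by DESeq2 and limma voom, each of which called 6 lower as well. Of all genes tested, 3.48% were called higher in this comparison. The members' median log2 fold change was -0.79, beside -0.02 over all genes tested. The same 6 members were lower with no overlap between the groups, a pattern that 21.4% of all genes tested showed, and Tgtp1 was higher with no overlap, as were 21.3% of genes. Leaving out sham replicate 2 with starvation replicate 3 gave 6 lower and 1 higher. It was 3 with libraries scaled by their totals alone, and 2, 1 and 3 without TPN replicates 1, 2 (the library high in acinar markers) and 3 and 2 without sham replicate 3, with Igtp called in every such fit. The call of Gbp3 held in 2 of the 9 fits that left out 1 library. Calls over all genes in this comparison numbered 1261 in the main fit and 216 to 4425 over the alternatives.

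Starvation against sham had 8 of the 10 members lower and 0 higher, and by unadjusted p all 10 were under 0.05 and lower. Of all genes tested, 2.55% were called higher. The members' median log2 fold change was -1.40, beside -0.01 over all genes tested. Without overlap, 9 members were lower, as were 11.2% of genes, and Tgtp1 was the exception. DESeq2 called 9 lower and limma voom 8, and leaving out these 2 outlying libraries gave 9. The count fell to 0 when only the starvation and sham libraries were fitted, a fit that called 2 genes of all tested, and it was 2 without starvation replicate 2 and 1 without sham replicate 3. Ifi47 was called in every fit that left out 1 library, and Iigp1 in 2 of those 9. Over all genes, calls in this comparison numbered 541 in the main fit and 2 to 2949 over the alternatives.

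TPN against starvation had 1 member higher, Gbp6, at a log2 fold change of 1.91 ± 0.26 (adjusted p = 0.00587). Of all genes tested, 3.90% were called lower. The members' median log2 fold change was 0.46, beside -0.03 over all genes tested, and 7 members were higher in TPN with no overlap, as were 15.3% of genes, while 18.3% of genes and 0 members were lower with no overlap. Iigp1 (1.20 ± 0.33, adjusted p = 0.0641), Tgtp1 (1.23 ± 0.36, adjusted p = 0.0791) and Gbp2 (1.23 ± 0.31, adjusted p = 0.0519) did not pass, each with all TPN libraries above all starvation libraries. With all libraries fitted, Igtp was close to equal in the 2 states, at -0.04 with a 95% interval from -0.61 to 0.52. Without sham replicate 2 and starvation replicate 3, Igtp was at 0.39 and among the members called higher. The count of members higher was 5 by DESeq2 and 7 when the 2 outlying libraries were left out, and Gbp6 was called in every alternative run. Calls over all genes changed too, from 857 in the main fit to between 124 and 3205 over the alternatives. The shares of all genes given here are those of the main fit and are not the background of these other counts. Since both comparisons with sham use the same 3 sham libraries, their lower members are not independent of each other.

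**Figure D3:**
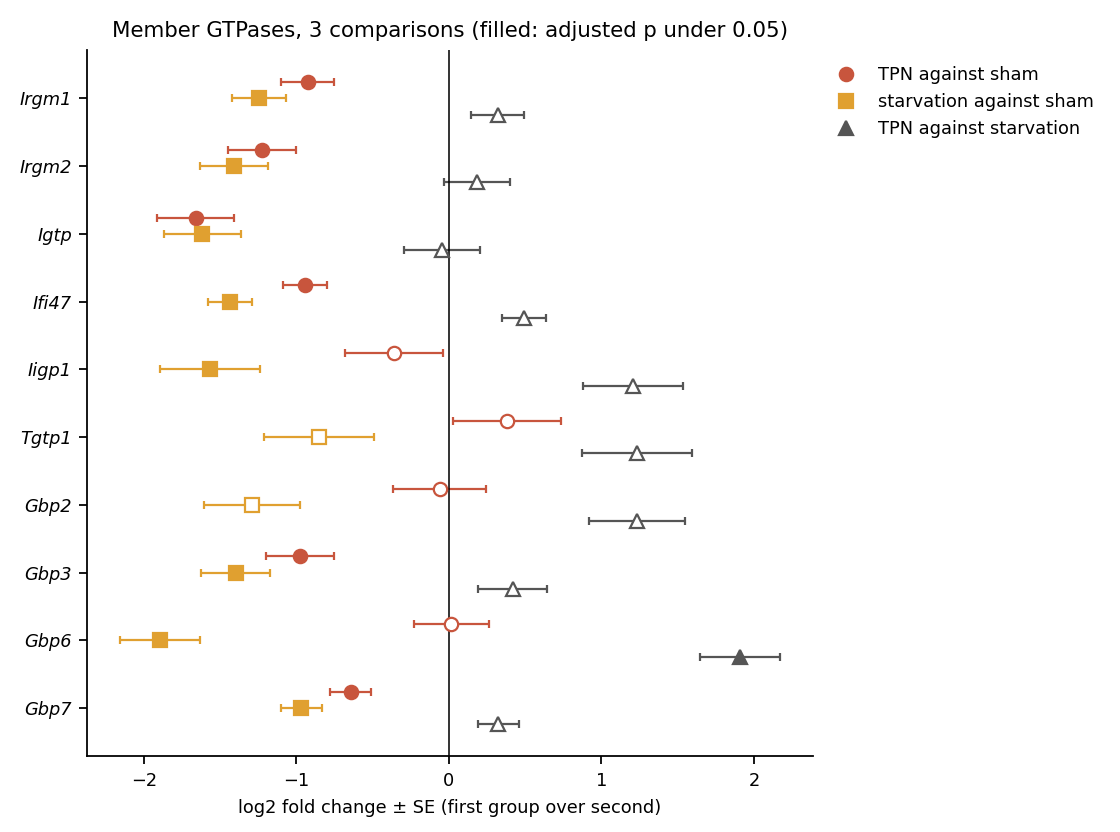
Log2 fold change (horizontal axis, first group over second, ± SE) of the 10 members in TPN against sham, starvation against sham and TPN against starvation, with filled symbols where the adjusted p was under 0.05. The regulators and Ifi47, Gbp3 and Gbp7 lie left of 0 in both comparisons with sham, while Gbp2 and Gbp6 lie near 0 in TPN against sham, Iigp1 and Tgtp1 lie on either side of it without passing, and all 4 lie left of 0 in starvation against sham.

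Per kilobase of exon, Igtp and Irgm2 led in sham, at 73.1 ± 9.03 and 68.3 ± 6.66 CPM per kb (SD, n = 3), and their libraries overlapped. Ifi47 followed at 47.4 ± 1.54 CPM per kb, below both in every library, and Irgm1 at 13.4 ± 1.80 was far lower. From Irgm1 through Gbp2, Iigp1 and Gbp7 to Gbp3, at 5.72 ± 1.36 CPM per kb, each sham level overlapped the next, and Gbp6 and Tgtp1 were lowest, at 2.52 ± 0.42 and 2.25 ± 0.83. In TPN the top 3 were Irgm2 (29.2 ± 4.57 CPM per kb), Ifi47 (24.6 ± 3.25) and Igtp (23.1 ± 1.51), and each overlapped the next. Gbp2 came next in TPN, at 8.81 ± 0.17 CPM per kb, above Irgm1 at 7.06 ± 0.33 in every library. In starvation Irgm2 (25.7 ± 7.69 CPM per kb), Igtp (23.9 ± 9.93) and Ifi47 (17.5 ± 2.21) led, Igtp overlapped both of the others, Irgm2 was above Ifi47 in every library, and Gbp6 was lowest at 0.68 ± 0.15 CPM per kb. The same 3 IRG genes thus led the order of levels in all 3 groups. The counts of Gbp6 and Tgtp1 are uncertain, because much of their sequence also occurs in other genes. Their low places in this order are therefore uncertain too. What reads that could not be placed did to these levels was not tested.

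The members varied together to different degrees over the 9 libraries. The log2 CPM of Gbp7 and Ifi47 followed the mean of the other members most closely (Pearson r = 0.952 and 0.944), and Tgtp1 least (r = 0.466). These are descriptions over 9 libraries that share the 3 groups. Over non-members with a mean log2 CPM of at least 3, of which there were 10143, the closest to the members' mean profile was Olfr56 (r = 0.979), whose exons overlap those of Ifi47. The next were Triap1 (0.962), Ube2l3 (0.961), Mtpn (0.952), Psmd2 (0.950), Plin2 (0.948), Kpna6 (0.946), Ube2n (0.945), Grpel1 (0.939) and Cd81 (0.938). Psmd2, a subunit of the proteasome's regulatory particle, averaged 68.1 CPM in TPN, 52.9 CPM in starvation and 91.4 CPM in sham.

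Of the remaining IRG and GBP genes, those that edgeR called against sham were lower, but most were not called. Of 19 listed, 17 were in the table and 16 passed the filter. Their median log2 fold change against sham was 0.15 in TPN, with 6 of the 16 below 0, and -0.40 in starvation, with 10 below 0. At an unadjusted p under 0.05 by edgeR, 2 were higher and 3 lower in TPN, and 0 higher and 6 lower in starvation. In TPN against sham 3 of the 16 were lower, namely Gm5431 (-1.28 ± 0.23, adjusted p = 0.0127), Gm12185 (-0.56 ± 0.13, adjusted p = 0.03) and Gbp2b (-2.11 ± 0.29, adjusted p = 0.00475). Gbp2b, which was long called Gbp1 in mice, had 6.35, 3.34 and 4.004 CPM in TPN, 8.38, 9.82 and 12.15 CPM in starvation and 19.0, 24.0 and 16.4 CPM in sham. Its TPN libraries were lower than its starvation libraries, opposite to the order in Gbp6, though that difference did not pass (-1.14 ± 0.29, adjusted p = 0.0526). In starvation against sham 3 of the 16 were lower, Tgtp2, Gm5431 (-1.30 ± 0.23, adjusted p = 0.0247) and Gm12185 (-0.70 ± 0.13, adjusted p = 0.0267). Gbp5, which promotes inflammasome assembly, had 17.96, 16.1 and 17.1 CPM in TPN, 6.22, 6.44 and 2.89 CPM in starvation and 9.52, 10.03 and 8.83 CPM in sham. TPN stood above sham and starvation below it in every library, and the difference between TPN and starvation passed (1.71 ± 0.29, adjusted p = 0.0125). Neither of its comparisons with sham did by edgeR (0.85, adjusted p = 0.0896 in TPN, and -0.86, adjusted p = 0.123 in starvation), while both did by DESeq2 (adjusted p = 0.0168 and 0.0323). Without TPN replicate 1, 2 or 3 or sham replicate 3, 1 of the 16 was called in TPN against sham, and 6 were without starvation replicate 3. In starvation against sham 0 were called without any 1 TPN library, starvation replicate 2 or sham replicate 1 or 3, against 6 unadjusted in the fit of all libraries, and 6 were called without starvation replicate 3.

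By position, the first chromosome 11 cluster (48861968 to 49096974) holds 8 IRG genes with Irgm1, Tgtp1 and Ifi47 among them. Of these 8, 4 were lower in TPN and 5 in starvation than in sham. Its 9930111J21Rik1 and 9930111J21Rik2, large IRG genes of the same cluster, were not called, with log2 fold changes from 0.32 to 0.60 against sham. In the second chromosome 11 cluster, Igtp and Irgm2 were the 2 genes tested and both were lower in both states. The chromosome 3 cluster (142493978 to 142638008) holds 5 GBP genes, of which Gbp2b, Gbp3 and Gbp7 were lower in TPN and Gbp3 and Gbp7 in starvation. In the chromosome 5 cluster (105014150 to 105346472), Gbp6 was lower in starvation, while Gbp4, Gbp8 and Gbp9 had log2 fold changes from -0.17 to 0.25 in both comparisons with sham. Gbp8 had 53.0, 51.3 and 46.9 CPM in TPN, 68.5, 58.4 and 34.1 CPM in starvation and 47.4, 47.6 and 40.7 CPM in sham, so that the groups overlapped.

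**Figure D4:**
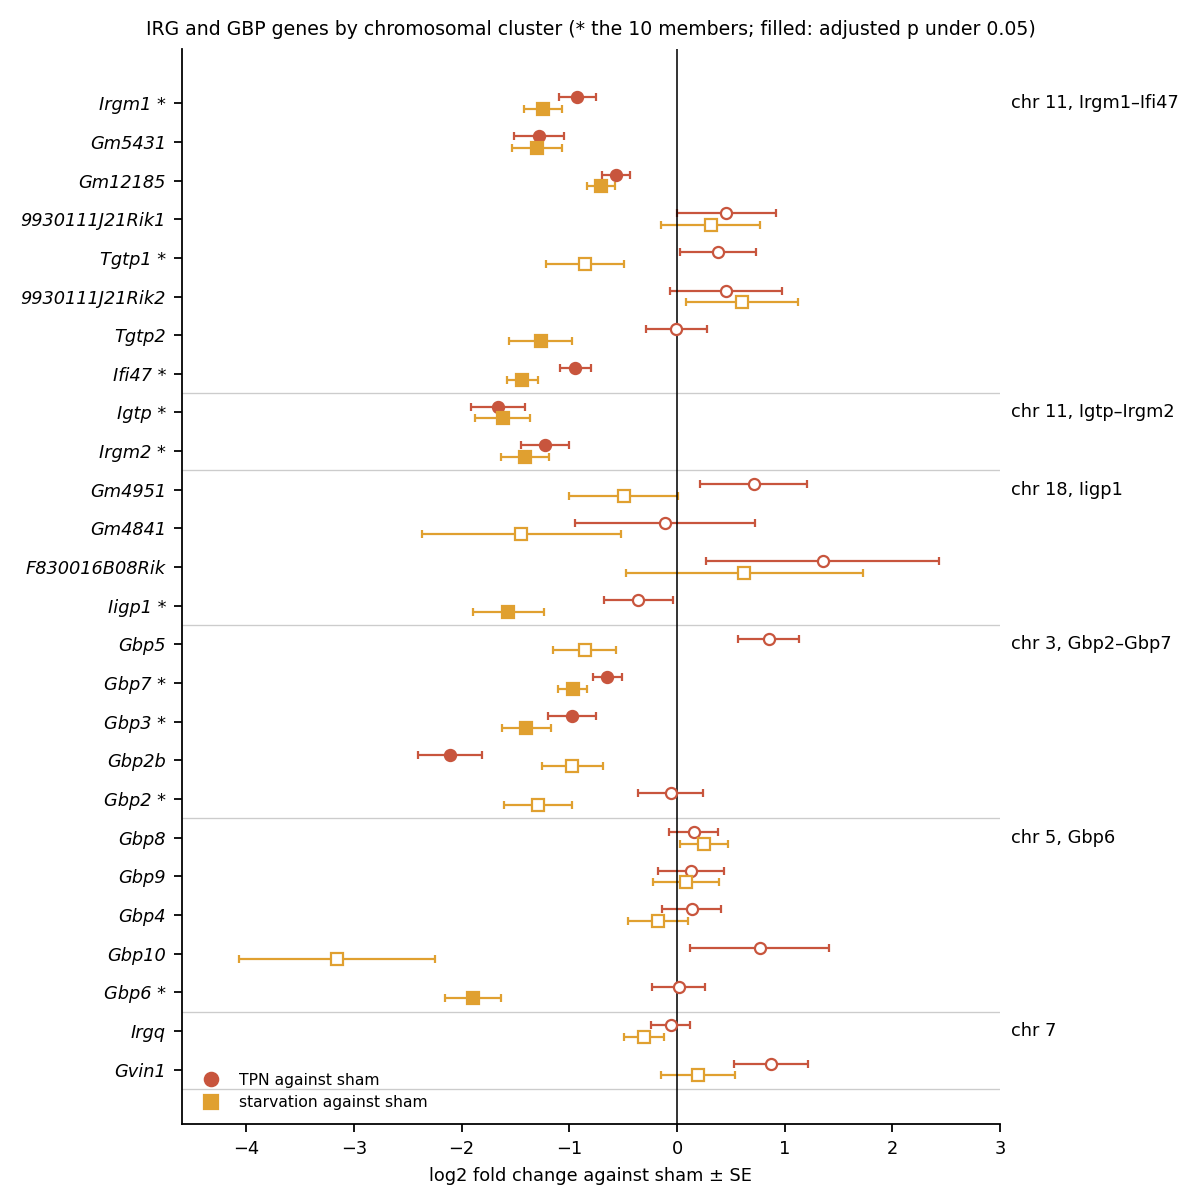
Log2 fold change against sham (horizontal axis, ± SE) of each tested IRG and GBP gene in TPN (circles) and starvation (squares), ordered by chromosomal cluster, with members starred and filled symbols where the adjusted p was under 0.05. Called and uncalled genes stand side by side within the clusters on chromosomes 11, 3 and 5.

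None of the genes of the ligand, its receptor, Irf1 and Nlrc5 passed a test against sham. Ifng, which encodes interferon gamma itself, had 1, 0 and 0 reads in TPN, 2, 2 and 2 reads in starvation and 3, 3 and 3 reads in sham. No TPN library reached a starvation or sham library, but these counts are under the filter, and in the fit without a filter Ifng did not pass (adjusted p = 0.171 in TPN against sham and 0.79 in starvation against sham). By reads alone the ratio to sham was 0.106 in TPN, with a 95% interval from 0.00242 to 0.766, and 0.687 in starvation, with an interval from 0.201 to 2.16, both covering counting error only. Ifngr1 had 155.3, 150 and 139.7 CPM in TPN, 118.3, 127.5 and 163.9 CPM in starvation and 114.6, 112.3 and 110.5 CPM in sham. It was above sham in every library of both groups without passing the test (0.40 ± 0.15, adjusted p = 0.127 in TPN, and 0.28 ± 0.15, adjusted p = 0.29 in starvation). Ifngr2 overlapped between the groups, with log2 fold changes of 0.14 and 0.27 against sham. Irf1 had 155.1, 137.1 and 148.1 CPM in TPN, 134.1, 127.5 and 264.1 CPM in starvation and 223, 208.8 and 214.9 CPM in sham. It was below sham in every TPN library and in starvation replicates 1 and 2, but above sham in starvation replicate 3. The log2 fold changes of Irf1 were -0.55 ± 0.26 in TPN (adjusted p = 0.205) and -0.30 ± 0.26 in starvation (adjusted p = 0.514). Those of Nlrc5, the activator of MHC class I genes, were 0.14 ± 0.22 and 0.24 ± 0.22.

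Of the 13 genes of interferon gamma reception, signalling and regulation, 2 were lower and 1 higher in TPN than in sham. Socs1, an inhibitor of Janus kinases that interferon itself induces, had 4.53, 2.15 and 4.49 CPM in TPN, 4.39, 5.49 and 6.48 CPM in starvation and 8.64, 10.9 and 8.997 CPM in sham. It was lower in TPN (-1.34 ± 0.33, adjusted p = 0.0381) and lay below sham in all starvation libraries without passing (-0.80 ± 0.32, adjusted p = 0.173). Irf8, a transcription factor of myeloid and other cells, was lower in TPN (-0.85 ± 0.18, adjusted p = 0.0228), and Ptpn2, a tyrosine phosphatase, was higher (0.89 ± 0.22, adjusted p = 0.0408). In starvation against sham edgeR called 0 of the 13, with 1 higher and 2 lower at an unadjusted p under 0.05, 1 lower by DESeq2 and 0 by limma voom. Ifnar1, a chain of the type I interferon receptor, was higher in both states (0.46 ± 0.12, adjusted p = 0.0458 in TPN, and 0.51 ± 0.12, adjusted p = 0.0488 in starvation), but the starvation value did not pass by limma voom (adjusted p = 0.055).

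Other targets of interferon gamma were also called lower. Of 16 tested, 6 were lower in TPN than in sham, the immunoproteasome subunits Psmb8 (-1.57 ± 0.24, adjusted p = 0.00698), Psmb9 and Psmb10, the peptide transporter chains Tap1 (-1.18 ± 0.15, adjusted p = 0.00313) and Tap2, and the ubiquitin-like gene Ubd. In starvation 1 of the 16 was called, the chemokine gene Cxcl9, lower at -1.59 ± 0.22 (adjusted p = 0.0105). Cxcl9 had 20.9, 17.5 and 15.5 CPM in TPN, 9.34, 8.23 and 6.48 CPM in starvation and 25.7, 19.7 and 27.2 CPM in sham, an order of groups like that of Iigp1. Tap1 had 50.02, 44.1 and 52.7 CPM in TPN, 81.1, 76.0 and 90.5 CPM in starvation and 104, 100.2 and 129 CPM in sham. Tap1 was thus lower in TPN than in starvation (-0.75 ± 0.15, adjusted p = 0.0199), whereas Cxcl9 was higher (1.16 ± 0.22, adjusted p = 0.0175). In this list the median log2 fold change was -0.74 in TPN and -0.61 in starvation against sham.

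Of 21 genes stimulated mainly by type I interferon, 7 were lower in TPN (Isg15, Ifit3, Rsad2, Oas3, Oasl1, Oasl2 and Zbp1) and 6 in starvation (Ifit2, Ifit3, Ifit3b, Ifi44, Zbp1 and Bst2). Zbp1, a sensor of nucleic acids in the Z form, had 13.3, 10.01 and 9.69 CPM in TPN, 5.58, 9.71 and 15.3 CPM in starvation and 28.1, 32.2 and 30.5 CPM in sham. No TPN or starvation library reached the sham range. Isg15 had 26.8, 27.6 and 36.7 CPM in TPN, 15.5, 23.8 and 95.9 CPM in starvation and 91.2, 291 and 129 CPM in sham, with a wide spread in both starvation and sham. The median over the 21 genes was -0.84 in TPN and -0.97 in starvation against sham, close to the members' -0.79 in TPN and nearer 0 than their -1.40 in starvation. Among 14 genes of vacuole targeting and autophagy that act with the GTPases, edgeR called 0 in TPN against sham, also at an unadjusted p under 0.05 and by DESeq2 and limma voom. In starvation it called 0 of the 14, with 1 higher and 2 lower at an unadjusted p under 0.05, and 1 higher and 1 lower by DESeq2. Of 9 tested inducers of interferon gamma, edgeR and limma voom called 0 against sham. At an unadjusted p under 0.05, 1 was higher in TPN and 4 in starvation, and DESeq2 called 1 and 2 higher. The 12 listed inducers summed to 124 to 158.4 CPM in TPN, 131 to 224.1 CPM in starvation and 78.3 to 97.4 CPM in sham. Their sums thus lay above sham in every TPN and starvation library. These sums rest mainly on Il15, Il18 and Il15ra. Il15 averaged 50.9 CPM in TPN, 79.8 in starvation and 29.6 in sham, and Il18 41.5, 42.3 and 29.7. Of the 9 tested, 2 had log2 fold changes below 0 in each comparison with sham.

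**Figure D5:**
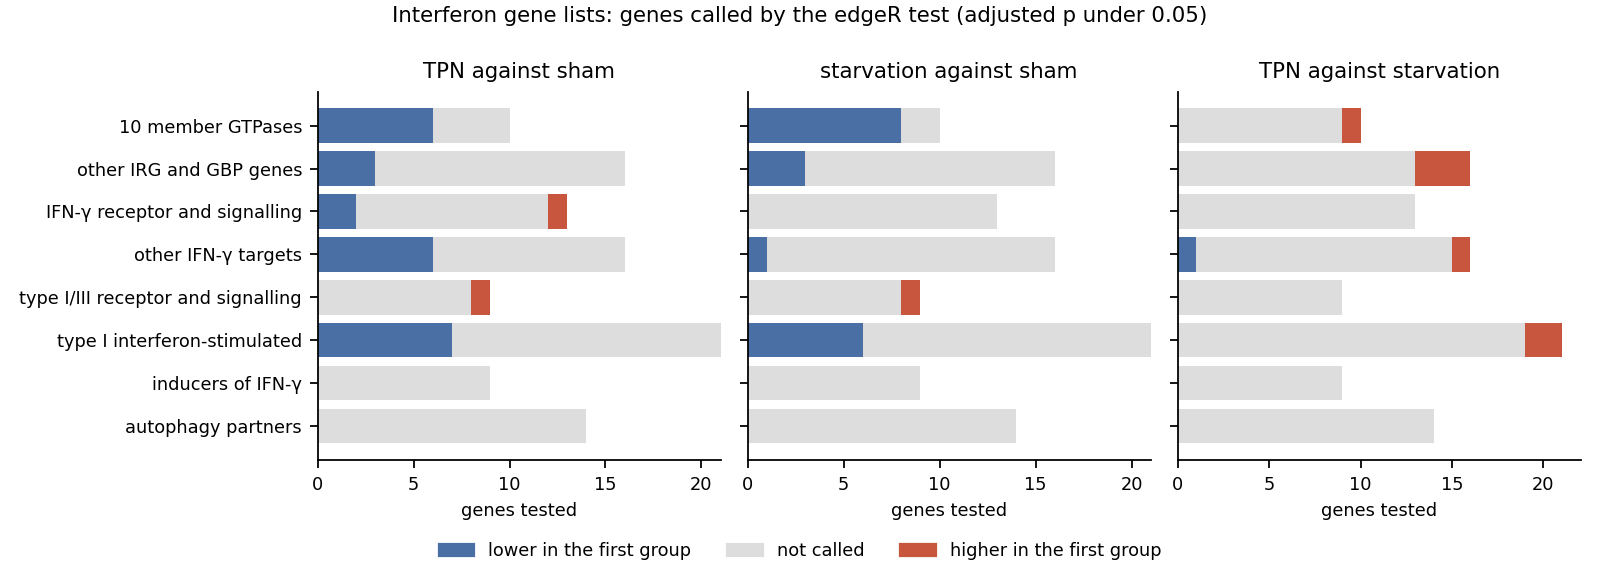
Number of genes tested in 8 interferon-related lists (horizontal axis) that were lower (blue), not called (grey) or higher (red) in the first group, by edgeR at an adjusted p under 0.05, for the 3 comparisons. The members hold the largest share of lower genes of the 8 lists in both comparisons with sham, at 6 and 8 of 10. Members and lists were chosen with earlier results of these data known, so this ranking can follow from the choice.

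Markers of other cell types are given here beside the members. Of 11 T and natural killer cell markers, edgeR called 0 in either comparison with sham, with 1 higher and 1 lower in TPN and 2 higher in starvation at an unadjusted p under 0.05, and DESeq2 and limma voom called 0. Their summed level was 195.4 to 240.4 CPM in TPN, 156.7 to 374.4 CPM in starvation and 237.6 to 401.8 CPM in sham. Of 12 macrophage and dendritic cell markers 0 were called against sham, with 5 lower in starvation at an unadjusted p under 0.05 and 1 lower by DESeq2, and the sums were 582.2 to 678.4 CPM in TPN, 362.5 to 600.3 CPM in starvation and 530.5 to 919.5 CPM in sham. Of 8 B and plasma cell markers 0 were called against sham, with 4 higher in starvation at an unadjusted p under 0.05, 2 of them by DESeq2, and 1 higher in TPN, and the sums were 1879 to 2252 CPM in TPN, 876.4 to 1790 CPM in starvation and 1400 to 2393 CPM in sham. Among them the B cell gene Ms4a1 had 0.494, 5.84 and 19.1 CPM in TPN, 61.3, 43.2 and 0.463 CPM in starvation and 0.491, 0.427 and 0.833 CPM in sham, so that 2 starvation libraries stood above the other 7 libraries. Of 10 smooth muscle markers 0 were called against sham, with 9 lower in TPN and 8 in starvation at an unadjusted p under 0.05, and 2 and 1 lower by DESeq2, and the sums were 491.8 to 1329 CPM in TPN, 758.1 to 1404 CPM in starvation and 1187 to 9457 CPM in sham. By limma voom 0 genes of the macrophage, B cell and smooth muscle lists were called against sham. Every marker of these lists had reads in every group. Of 10 enterocyte markers, Alpi, Anpep and Fabp2 were lower in TPN than in sham. Of 7 Paneth cell markers, Defa24, Defa30, Defa5 and Itln1 were lower in starvation than in sham, and the summed level was 3179 to 4231 CPM in TPN, 509 to 1883 CPM in starvation and 3101 to 3456 CPM in sham. The Paneth markers thus ordered the groups as Gbp6 did, with TPN beside sham and starvation below. Of 7 fibroblast markers, 3 collagen genes were lower in TPN and 2 in starvation, with sums of 199.6 to 290.1 CPM in TPN, 153.4 to 283.2 CPM in starvation and 395.2 to 1208 CPM in sham. What these cell types contributed to the members' levels was not tested.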

How the data were processed

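Libraries were made from poly(A) RNA with random priming, per the labels' protocols, which name no step that marks the strand. The authors deposited unnormalized counts of reads by gene. Builds (mm10, GRCm38) and tools (DESeq2 1.32.0, featureCounts 2.0.0, STAR 2.7.2e, cutadapt 2.9, FastQC 0.11.8) come from the submitters' processing notes. How multi-mapping reads were counted, with which strand option and against which annotation release, is not given in the sources used here. Reads of overlapping or near-identical genes may therefore not be separable. The table has 9 more columns that no label matches, which were left out.

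The labels gave the groups and replicate numbers, with 3 libraries in each of 3 groups and total counts of 7779877 to 12084278. Libraries of a group differed by more than sampling noise in every pair (chi-square per gene 7.74 to 118). Genes were kept by filterByExpr of edgeR 4.0.16 in R 4.3.3, which left 14668. TMM factors scaled the libraries. All 9 libraries entered 1 quasi-likelihood fit of group means (residual degrees of freedom 6), from which the 3 contrasts were taken. Adjusted p-values are Benjamini-Hochberg over all genes tested, called under 0.05. Standard errors are the absolute log2 fold change over the root of F. The fitting code was tested on simulated data. CPM values are TMM scaled, with mean ± SD over 3 libraries.

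Positions are those of GENCODE release M21 on GRCm38 and promoter windows those of RefSeq on GRCm38.p6. Promoter stretches were cut so that at most 30 bases lie in annotated exons.

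The members and gene lists were chosen with earlier results of these data known. Named are all members, the listed genes that passed, the other IRG and GBP genes, a set of receptor and regulator genes (Ifng, Ifngr1, Ifngr2, Irf1, Nlrc5, Socs1), and the 10 non-members with a mean log2 CPM of at least 3 whose profile had the highest Pearson r with the members' mean. Zbp1, Isg15, Tap1, Cxcl9 and Gbp8 were given per library after their values were seen. Some genes the rule took are left out of the text. Alternatives were DESeq2 1.42.0, voom of limma 3.58.1, RLE or upper quartile factors, library totals, no filter, a minimum CPM of 1 in 3 libraries, fits of the 2 groups alone, a replicate block, an adjusted p under 0.01, each library left out, and a fit without sham replicate 2 or starvation replicate 3.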

Additional observations from a re-analysis of the deposited data

Results flagged for a closer look

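Among the members and the interferon-related genes listed with them, 8 genes differed between TPN and starvation by edgeR's quasi-likelihood test of that contrast itself, which is the difference between their 2 effects against the same sham libraries. Gbp6 was the member, at a log2 fold change of 1.91 (adjusted p = 0.00587). Its neighbour Gbp10 differed by 3.92 (adjusted p = 0.0331), on 39 reads over the TPN libraries, 2 over the starvation libraries and 22 over the sham libraries. By reads alone the ratio of TPN to starvation for Gbp10 was 18.1, with a 95% counting interval from 4.68 to 154, and it shares 46.3% of its exonic bases with other genes, so its reads may not be separable from those of Gbp6. Gbp5 (1.71, adjusted p = 0.0125) and Tgtp2 (1.26, adjusted p = 0.0383) were higher in TPN too. The same held for Cxcl9 (1.16, adjusted p = 0.0175), for Ifi44 (1.37, adjusted p = 0.0463), an interferon-stimulated gene with 5.52 to 9.53 CPM in TPN, 2.11 to 3.70 CPM in starvation and 11.3 to 20.2 CPM in sham, and for Bst2 (1.27, adjusted p = 0.0475), which tethers budding virus particles to the cell. By limma voom Ifi44 (adjusted p = 0.102) and Bst2 (adjusted p = 0.0605) did not pass, and the other 6 did. Tap1 differed the other way, at -0.75 (adjusted p = 0.0199). With all 9 libraries in the fit, 8 such flags stand among the genes listed. Higher in TPN were 1 of 10 members, 3 of 16 other IRG and GBP genes and 2 of 21 type I interferon-stimulated genes. Of 16 other interferon gamma targets, 1 was higher and 1 lower, and the other interferon-related lists held 0. Of all genes tested, 1.94% were called higher and 3.90% lower.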

How the results depend on the processing

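The members lower in TPN than in sham (6) numbered 3 with library totals alone, 2 at an adjusted p under 0.01, and 1 to 6 with 1 library left out. In starvation against sham (8), the count was 0 with only the 2 groups compared, 1 at an adjusted p under 0.01, and 1 to 9 with 1 library left out. In TPN against starvation (1 higher), it was 5 by DESeq2, 3 with upper quartile factors, 3 with library totals alone, 2 with no filter, 2 with only the groups compared, 7 without sham replicate 2 and starvation replicate 3, and 1 to 3 with 1 library left out. Apart from the replicate block, given next, the other alternatives stayed within 1.5 times these counts.

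The labels do not say whether same-numbered libraries were paired. Deviations of same-numbered libraries correlated at -0.30 to 0.38, which cannot decide it, since single outlying libraries can shape such correlations. With the replicate number as a block, 4 members were lower in TPN and 4 in starvation, and 1 was higher in TPN than in starvation.

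The direction turned for 3 values that did not pass in edgeR's fit of all 9 libraries. Without sham replicate 2 and starvation replicate 3, Gbp2 and Igtp passed in the turned direction. Gbp2 in TPN against sham was 0.089 by limma voom, 0.035 with upper quartile factors, 0.16 with library totals, 0.024 with the replicate block, -0.27 to 0.46 with 1 library left out (0.46 without sham replicate 2) and 0.50 without that library and starvation replicate 3. Gbp6 in TPN against sham was -0.027 by limma voom, and -0.12 to 0.17 with 1 library left out. Igtp in TPN against starvation was 0.042 by limma voom, 0.059 with upper quartile factors, 0.18 with library totals, 0.015 with the replicate block, 0.39 without both libraries, and -0.24 to 0.40 with 1 library left out. The cause was not tested. Of 190 recomputed member values per comparison, 155, 155 and 164 kept direction and side of the threshold in TPN against sham, starvation against sham and TPN against starvation. Scaling by totals moved the median of all genes by 0.19 in TPN against sham and lowered the share of lower calls from 59.6% to 46.8%. Over all genes, calls numbered 1261, 541 and 857 in the 3 comparisons and ran from 216 to 4425, 2 to 2949 and 124 to 3205 over the alternatives. For the other IRG and GBP genes, 3 calls in each comparison became 1 to 6, 0 to 7 and 0 to 5.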
